A study of Homo sapiens with 60 samples.

Results

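The alkaline phosphatases measured here are 4 genes of 19712 in the deposited tables: ALPP, ALPG, ALPI and ALPL. They were chosen by name, because the increase of ALPG was among the largest under acute osimertinib in the lines PC9 and HCC827. Its log2 fold change against DMSO ranked 11 of 14076 genes tested in PC9 and 10 of 13746 in HCC827. Values of ALPG, ALPP and ALPI that use the DMSO or acute libraries of those lines are therefore a description with no test.

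Alkaline phosphatases are enzymes held on the outer face of the cell membrane by a glycosylphosphatidylinositol (GPI) anchor, where they remove phosphate groups from small molecules and proteins. ALPP encodes the placental enzyme, ALPG the germ cell enzyme and ALPI the intestinal enzyme, and each is named for the tissue in which it is normally most abundant. ALPL encodes the tissue-nonspecific enzyme of liver, bone and kidney, which hydrolyzes pyrophosphate during bone mineralization and pyridoxal phosphate, a form of vitamin B6. Placental and germ cell enzymes are also known as ectopic products of tumours.

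The cells were 4 EGFR-mutant lines of non-small cell lung cancer, PC9, HCC827, H1975 and HCC2935, each in 5 arms with 3 libraries (60 libraries in 20 groups). In the DMSO and acute arms, parental cells were kept without drug for 21 days and then given vehicle or 500 nM osimertinib, an EGFR kinase inhibitor, for 24 h. Drug-tolerant persisters (DTPs) were harvested after 21 days in 500 nM osimertinib. The short washout added 24 h without drug, and the long washout lasted until growth resumed, which took 7 days in PC9, 4 days in HCC827, 3 days in H1975 and 10 days in HCC2935. The DTP and washout arms thus also differ from DMSO in their time in culture under drug. All 4 lines are established lines with an activated EGFR, so no arm lacks that lesion.

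Libraries held between 17.7 M and 49.1 M estimated counts, with 34.7 to 47.1 M in PC9, 17.7 to 25.1 M in HCC827, 38.7 to 49.1 M in H1975 and 18.6 to 25.6 M in HCC2935. All 60 libraries correlated best with another library of their own line, and 47 with one of their own group. The other 13 were DTP or washout libraries whose nearest library came from another of those arms. Summed TPM (abundance scaled to transcript length and library) of 5 epithelial markers lay between 1636 and 13641 in every library, and that of 4 haematopoietic markers between 0.0219 and 7.54. Summed TPM of 3 endothelial markers reached 22.0 and that of 4 fibroblast markers 199. Of the lung markers, NKX2-1 was not analysed here, and the other 3 summed to between 0.311 and 421. EPCAM, the epithelial adhesion molecule, was at least 18.1 TPM in every library. Some markers of other cell types moved with the arms. Under acute drug, 1 of 3, 1 of 2, 2 of 3 and 2 of 3 endothelial markers tested and 1 of 1, 1 of 1, 2 of 2 and 1 of 2 fibroblast markers tested were called higher in PC9, HCC827, H1975 and HCC2935. Of all genes tested, 34.4%, 20.2%, 21.2% and 22% were called higher in the same order. Markers called lower are not counted here, so these counts show no net rise of either list. The endothelial sum in PC9 was 8.42 to 15.1 TPM under DMSO and 8.18 to 9.86 TPM under acute drug. The fibroblast sum in H1975 was 21.4 to 58.3 TPM under DMSO and 88.7 to 199 TPM under acute drug, nearly all of it from COL1A1 and COL1A2, while PDGFRA and DCN stayed at or below 1.33 TPM in all 60 libraries. In HCC827 DTPs all 5 epithelial markers were called lower, as were 17.2% of all genes tested. The part of these markers in the results was not tested. In bulk RNA, fewer cells with a transcript and less transcript per cell cannot be told apart.

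ALPP, ALPG and ALPI stand side by side on chromosome 2 and read in the same direction, and ALPL lies alone on chromosome 1. In GENCODE 29 (build GRCh38, the submitters' hg38), ALPP (ENSG00000163283.6) spans chr2:232378534-232382889, ALPG (ENSG00000163286.8) chr2:232406843-232410714 and ALPI (ENSG00000163295.4) chr2:232456123-232460032, all on the plus strand. ALPL (ENSG00000162551.13) spans chr1:21509372-21578412 on the plus strand. All 4 genes had entries in the RefSeq promoter table (GRCh38.p14), ALPL with 3 alternative windows. The 250 bases before the RefSeq start of each chromosome 2 gene are printed because these genes were compared as a cluster. The windows are chr2:232378501-232378750 for ALPP, chr2:232406594-232406843 for ALPG and chr2:232455903-232456152 for ALPI, on the plus strand. Capitals mark the 2 runs of at least 12 bases that all 3 windows share. The GENCODE 29 starts of the 3 genes fall inside these windows.
ALPP: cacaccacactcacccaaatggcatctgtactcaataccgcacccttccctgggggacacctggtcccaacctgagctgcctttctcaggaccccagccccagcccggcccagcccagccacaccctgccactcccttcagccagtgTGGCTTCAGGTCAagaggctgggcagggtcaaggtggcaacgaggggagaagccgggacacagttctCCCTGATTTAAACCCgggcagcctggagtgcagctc
ALPG: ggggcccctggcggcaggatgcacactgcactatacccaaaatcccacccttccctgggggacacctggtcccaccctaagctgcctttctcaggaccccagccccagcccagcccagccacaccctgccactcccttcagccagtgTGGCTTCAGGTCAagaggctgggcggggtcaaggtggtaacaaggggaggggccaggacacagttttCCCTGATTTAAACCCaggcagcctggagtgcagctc
ALPI: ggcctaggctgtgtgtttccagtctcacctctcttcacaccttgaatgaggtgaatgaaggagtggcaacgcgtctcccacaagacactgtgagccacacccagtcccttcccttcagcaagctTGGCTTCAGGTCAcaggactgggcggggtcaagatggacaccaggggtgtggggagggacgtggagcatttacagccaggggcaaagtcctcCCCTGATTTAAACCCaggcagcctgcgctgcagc

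The run CCCTGATTTAAACCC ended 22 bases before the start of ALPP and of ALPG and 20 bases before that of ALPI. The run TGGCTTCAGGTCA began 103 bases before the start of ALPP and of ALPG and 126 bases before that of ALPI. Each run occurred in 3 of the 35116 windows of the table, which are these 3. Over the 250 bases, ALPP and ALPG were identical at 216 of 244 aligned positions (88.5%), ALPP and ALPI at 158 of 221 (71.5%), and ALPG and ALPI at 162 of 220 (73.6%). Searched on both strands, AGGTCA and TTTAAA, which lie in the shared runs, had 1 match in each window, and 12.1% and 11.3% of all windows hold them. CCACACCC had 1 match in ALPP, 1 in ALPG and 2 in ALPI and occurs in 2.97% of windows. GTAAACA (2.98% of windows) and TGANTCA (6.57%) had no match. AGGTCA and TTTAAA were picked after the sequences were read, and a match describes letters, not binding.

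The ALPG and ALPP transcripts are close enough to share reads, which bears on every ALPG value. Their longest coding transcripts in GENCODE 29 were identical at 2247 of 2452 aligned bases (91.6%). The first 1700 bases of ALPG held 47 of the 205 differences, and the rest held 158. Of all stretches of 150 bases in ALPG, the length of 1 read, 8.49% occur unchanged in ALPP, and of stretches of 31 bases 37.4% do. ALPI shared no stretch of 150 bases with either gene, and 4.84% of its stretches of 31 bases were also in ALPP. ALPL shared no stretch of 31 bases with the others.

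**Figure D1:**
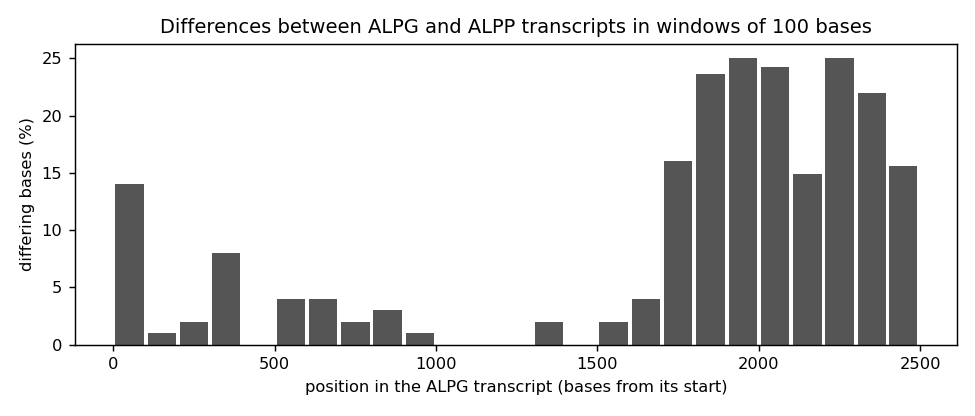
Share of aligned bases that differ between the ALPG and ALPP transcripts (vertical axis, %) along the ALPG transcript (horizontal axis, bases from its start), in windows of 100 bases. Differences are few over the first 1700 bases (47 of 205) and dense after them (158 of 205).

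Levels per transcript length differed between the genes by orders of magnitude. Over the 60 libraries ALPP ranged from 0.609 to 3156 TPM, ALPG from 0.0951 to 44.9 TPM, ALPL from 0 to 4.59 TPM and ALPI from 0 to 0.271 TPM. ALPP was higher than ALPG in every library. In the acute libraries of PC9, ALPP was among the most abundant transcripts, ranking 30 to 32 among all genes by TPM. In the DMSO libraries of PC9 it ranked 1579 to 2098. It took 0.490% to 0.548% of all counts in the acute libraries and 0.0108% to 0.0144% in the DMSO libraries.

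In the order of the 20 groups by TPM, ALPP was highest in the 4 osimertinib-exposed arms of PC9 and lowest in H1975 DMSO. The libraries of neighbouring groups in this order did not overlap in 7 of 19 pairs for ALPP, 4 of 19 for ALPG, 3 of 19 for ALPL and 1 of 19 for ALPI. PC9 acute and PC9 DTP overlapped at the top for ALPP, both lay above PC9 short washout, and PC9 long washout lay above HCC2935 DTP. For ALPG, PC9 acute lay above all other groups, and the next 12 groups formed a chain of overlapping neighbours. H1975 DMSO had the lowest median and lay apart from HCC827 DMSO, its neighbour in the order. It overlapped with PC9 DMSO, where replicate 3 had 0.103 TPM, within the H1975 DMSO range of 0.0951 to 0.141 TPM. For ALPL, the 3 arms of H1975 with 21 days of drug stood above all others.

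**Figure D2:**
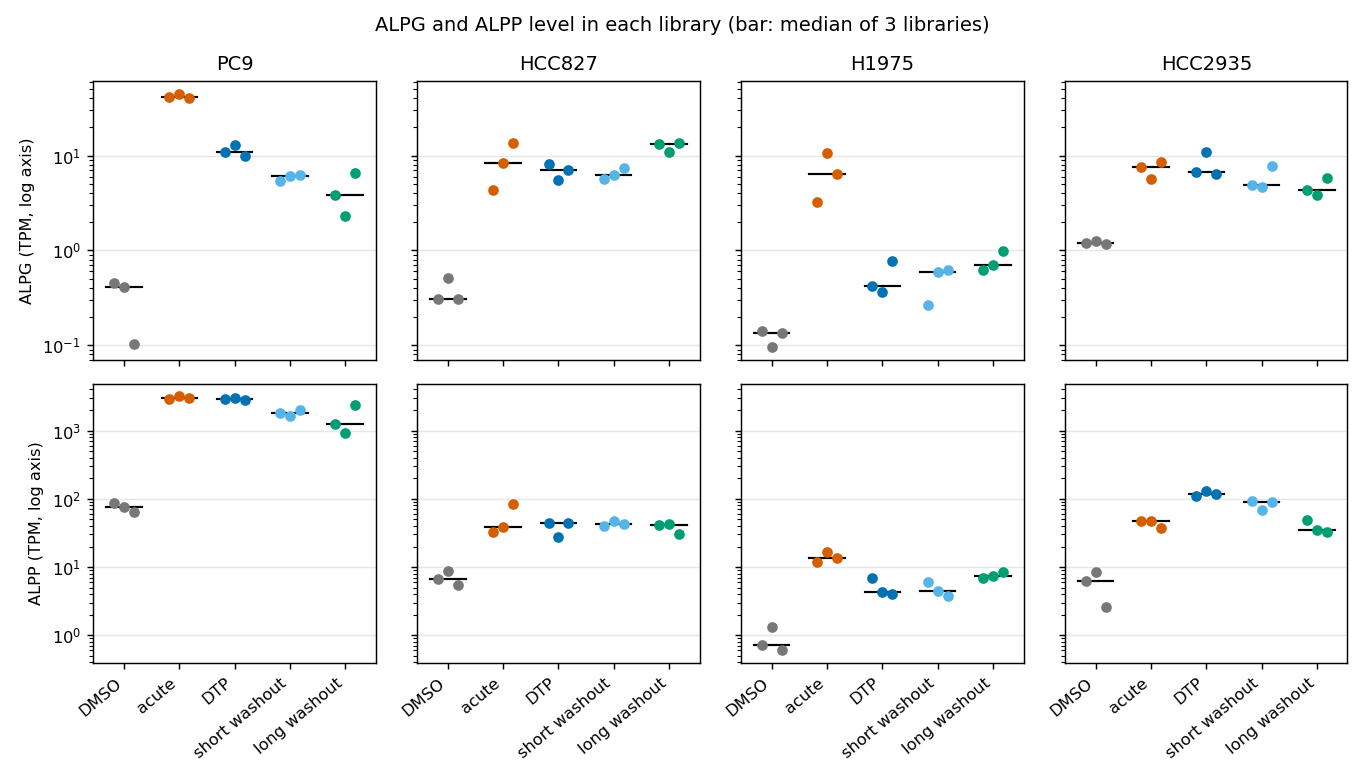
TPM on a log axis of ALPG (upper row) and ALPP (lower row) in each of 60 libraries, by line (columns) and arm, with a bar at the median of 3 libraries. All DMSO points lie below all points of the other 4 arms of the same line, for both genes.

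Under acute osimertinib ALPP and ALPG rose in H1975 and HCC2935, which are not the lines named for their choice. Earlier results of these data were known when the members were chosen, so the p-values in these lines may not be independent of that choice. Levels within a gene are given in CPM (counts scaled to library size, TMM-normalized) and fold changes as ratios of mean CPM. In H1975, ALPP had 0.997, 1.14 and 2.04 CPM under DMSO and 19.3, 21.6 and 27.5 CPM under acute drug, a 16.4-fold rise (log2 3.99, SE 0.30, edgeR adjusted p = 9.17e-05). ALPG had 0.157, 0.244 and 0.260 CPM under DMSO and 6.05, 11.6 and 19.6 CPM under acute drug, a 56.3-fold rise (log2 5.74, SE 0.52, edgeR adjusted p = 0.000189). In H1975, 2 of 3 DMSO libraries reached the cutoff of the filter on low counts for ALPG, so the gene entered this comparison and the DTP and long washout comparisons with DMSO through the higher arm; without the filter the edgeR adjusted p were 0.000123, 0.00730 and 0.000608. The groups were far apart for both genes, while the acute libraries of ALPG spread over a wider range than those of ALPP. Of all genes tested in this comparison, 21.2% were called higher, and ALPG and ALPP ranked 4 and 25 of 14738 by log2 fold change. In HCC2935, ALPP had 3.52, 9.08 and 12.3 CPM under DMSO and 49.3, 69.6 and 69.7 CPM under acute drug, a 7.58-fold rise (log2 2.91, SE 0.34, edgeR adjusted p = 0.000115). ALPG had 1.76, 1.97 and 2.05 CPM and then 9.28, 12.5 and 12.8 CPM, a 5.98-fold rise (log2 2.56, SE 0.22, edgeR adjusted p = 1.61e-05). Of genes tested in HCC2935, 22% were called higher, and ALPG and ALPP ranked 101 and 58 of 14060 by log2 fold change.

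The acute change of ALPG differed between these lines and that of ALPP did not pass the test. The rise of ALPG was 3.27 log2 units larger in H1975 than in HCC2935 (SE 0.55, edgeR adjusted p = 0.00269, interaction of line and arm), where 12.9% of 15476 genes differed. The difference for ALPP was 1.17 log2 units (SE 0.51, edgeR adjusted p = 0.154). On log2(TPM + 1), which adds 1 TPM to ALPG levels near 0.135 TPM in H1975 DMSO and 1.21 TPM in HCC2935 DMSO, the ALPG difference was 0.78 and no longer called (limma adjusted p = 0.210). ALPG levels under acute drug overlapped between the lines, with 6.05 to 19.6 CPM in H1975 and 9.28 to 12.8 CPM in HCC2935. Those under DMSO did not, with 0.157 to 0.260 CPM and 1.76 to 2.05 CPM.

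In PC9 and HCC827, whose values chose ALPG, both genes were higher under acute drug in every library. In PC9, ALPG had 0.235, 0.882 and 0.960 CPM under DMSO and 86.0, 89.1 and 102 CPM under acute drug (log2 7.03, SE 0.27). ALPP in PC9 had 123, 147 and 164 CPM and then 5462, 5693 and 6313 CPM (log2 5.32, SE 0.12). So the larger log2 change belonged to ALPG and the larger absolute change to ALPP, 40.2-fold from a start 2 orders of magnitude higher. In HCC827, ALPG had 0.571, 0.590 and 0.976 CPM and then 8.29, 15.6 and 24.7 CPM (log2 4.48, SE 0.44), and ALPP 9.34, 11.3 and 15.04 CPM and then 55.1, 63.5 and 135 CPM (log2 2.81, SE 0.34). Of all genes tested, 37.4% in PC9 and 28.3% in HCC827 had all acute libraries above all DMSO libraries.

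**Figure D3:**
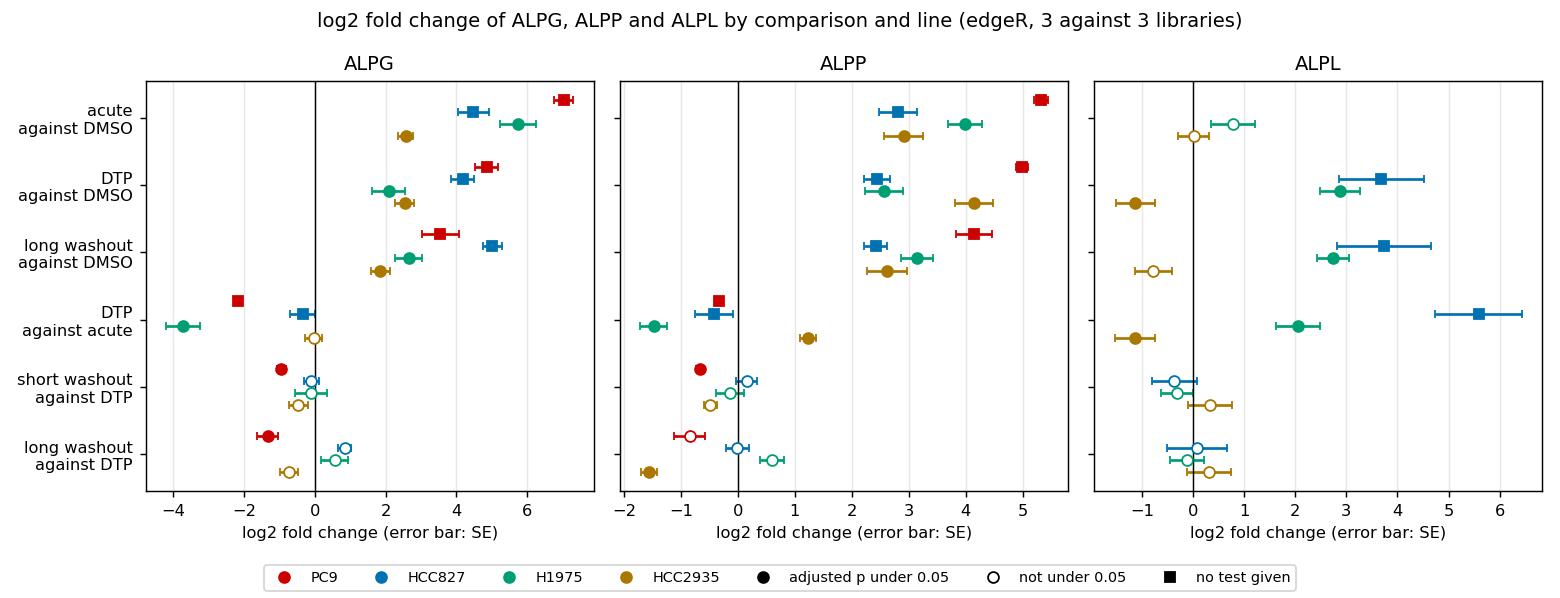
log2 fold change with its standard error (horizontal axis) of ALPG, ALPP and ALPL for 6 comparisons (rows) in 4 lines (colours), with filled circles where the edgeR adjusted p was under 0.05, open circles where it was not, and squares where no test is given. ALPG and ALPP lie right of 0 in all comparisons with DMSO, while ALPL lies right of 0 in HCC827 and H1975 and left of 0 in HCC2935 in DTPs. ALPL in HCC827 against DMSO or acute is drawn without a test, since those arms held 5 and 1 counts. ALPG in H1975 against DMSO is drawn as tested, although it passed the filter on low counts through the higher arm.

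DTPs held more ALPP and ALPG than DMSO in every line. The size of this change was not tested between lines or genes. DTP, acute and long washout comparisons with DMSO share the DMSO libraries. In H1975, ALPP was at 6.79, 6.84 and 11.2 CPM in DTPs (5.95-fold, log2 2.56, SE 0.34, edgeR adjusted p = 0.000569) and ALPG at 0.658, 0.770 and 1.46 CPM (4.37-fold, log2 2.09, SE 0.46, edgeR adjusted p = 0.00609). ALPG entered this comparison through the DTP libraries, and without the filter its edgeR adjusted p was 0.00730. Called higher there were 22.4% of genes tested. In HCC2935, ALPP was at 138, 145 and 161 CPM in DTPs (17.8-fold, log2 4.15, SE 0.34, edgeR adjusted p = 2.03e-05) and ALPG at 8.94, 9.71 and 15.4 CPM (5.88-fold, log2 2.54, SE 0.26, edgeR adjusted p = 6.79e-05). Called higher there were 25.3% of genes. In PC9, DTPs held 4387 to 4735 CPM of ALPP and 17.6 to 23.4 CPM of ALPG, above all DMSO libraries (log2 4.99 and 4.86), as did 37.5% of genes tested. In HCC827, DTPs held 46.0 to 74.4 CPM of ALPP and 10.2 to 14.5 CPM of ALPG, also above all DMSO libraries (log2 2.44 and 4.18), as did 24.4% of genes tested.

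From acute drug to DTPs the lines parted. In H1975 both genes were lower in DTPs than under acute drug, ALPG by log2 -3.72 (SE 0.48, edgeR adjusted p = 0.00162) and ALPP by log2 -1.48 (SE 0.23, edgeR adjusted p = 0.00330). Of genes tested there, 14.9% were called lower. In HCC2935, ALPP was higher in DTPs than under acute drug (2.35-fold, log2 1.23, SE 0.14, edgeR adjusted p = 8.90e-05), where 22% of genes were called higher. ALPG there showed overlapping libraries (log2 -0.03, SE 0.24, edgeR adjusted p = 0.934). In PC9, ALPG was at 0.220 times its acute level in DTPs and ALPP at 0.786 times, with all DTP libraries below all acute libraries, as for 28% of genes tested. In TPM, however, the ALPP libraries of these 2 arms overlapped (log2 -0.07). In HCC827 the libraries of both genes overlapped between the arms (ratios 0.788 for ALPG and 0.745 for ALPP). The opposite directions of ALPP in H1975 and HCC2935 were not tested against each other.

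After 24 h without drug, ALPP and ALPG fell in PC9. ALPP had 2693, 2857 and 3115 CPM in the short washout (0.632 times DTP, log2 -0.67, SE 0.06, edgeR adjusted p = 0.000424), and ALPG 9.56, 11.0 and 11.3 CPM (0.524 times, log2 -0.94, SE 0.13, edgeR adjusted p = 0.00217). Of genes tested, 10.1% were called lower. Both calls were lost when the spread was shared with other arms: adjusted p was 0.0604 for ALPG and 0.0722 for ALPP in a fit of the 15 PC9 libraries (edgeR), and 0.0992 and 0.161 with all 60. In HCC2935, ALPP was at 87.3, 112 and 118 CPM, below all DTP libraries as for 11.9% of genes tested (log2 -0.48, SE 0.12, edgeR adjusted p = 0.0588), with 3.52% of genes called. DESeq2 called it (adjusted p = 0.00349). ALPG in HCC2935 overlapped (log2 -0.46, SE 0.27, edgeR adjusted p = 0.376).

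In HCC827 and H1975 no change of ALPP or ALPG with the short washout was detectable. The log2 changes in HCC827 were 0.16 for ALPP (SE 0.18) and -0.10 for ALPG (SE 0.21), and in H1975 -0.14 (SE 0.24) and -0.10 (SE 0.45), with overlapping libraries. No gene at all was called by edgeR in either line at an adjusted p under 0.05, while 197 of 14009 in HCC827 and 1950 of 14665 in H1975 had an unadjusted p under 0.05. DESeq2 called 0 genes in HCC827 and 399 in H1975, and limma on log2 TPM 0 in both. With the replicate number as a block, edgeR called 1697 genes (11.6%) in H1975 and 2 (0.0143%) in HCC827. ALPP and ALPG were not among them, with blocked edgeR adjusted p of 0.634 and 0.888 in H1975 and 0.865 and 0.940 in HCC827. The change did not differ detectably among the 4 lines (joint edgeR adjusted p = 0.392 for ALPP and 0.681 for ALPG), where 4 of 16120 genes (0.0248%) were called, and over the 6 pairs of lines the lowest edgeR adjusted p was 0.240 for ALPP and 0.452 for ALPG.

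The long washouts differed in length between lines, so each line is given by itself. After 7 days in PC9, ALPG had 4.80, 7.40 and 11.8 CPM (0.394 times DTP, log2 -1.33, SE 0.31, edgeR adjusted p = 0.0335), and ALPP 1673, 2129 and 3765 CPM (0.551 times, log2 -0.85, SE 0.27, edgeR adjusted p = 0.0631). Replicate 3 of the washout lay well above the other two for both genes, and 5.47% of genes were called lower. The ALPG call was lost in 5 of 6 fits that leave out a library, all but the one without PC9 long washout replicate 3 (adjusted p up to 0.125). Without that library the ALPP value was called too (log2 -1.26, edgeR adjusted p = 0.000128), as it was in a fit of the 15 PC9 libraries (edgeR adjusted p = 0.00635) and by DESeq2 (adjusted p = 0.00656). After 10 days in HCC2935, ALPP had 43.3, 46.1 and 61.1 CPM (0.339 times DTP, log2 -1.57, SE 0.14, edgeR adjusted p = 0.00440), where 2.17% of genes were called lower. ALPG had 5.70, 6.24 and 8.78 CPM, below all DTP libraries as for 13.9% of genes tested, without passing the test (log2 -0.73, SE 0.26, edgeR adjusted p = 0.133).

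After 4 days in HCC827 and 3 days in H1975 neither gene passed the test against DTP, in comparisons in which edgeR called 0 of 14053 and 2 of 14702 genes (0.0136%). ALPG in HCC827 had 19.99, 24.3 and 24.5 CPM, above all DTP libraries as for 3.79% of genes tested (log2 0.85, SE 0.18, edgeR adjusted p = 1.00). In that comparison 434 genes had an unadjusted p under 0.05, and DESeq2 called 7 genes and limma 0, ALPG not among them. ALPP in H1975 had 11.5, 11.5 and 14.5 CPM, above all DTP libraries as for 4.82% of genes tested (log2 0.59, SE 0.21, edgeR adjusted p = 0.984).

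At the end of the long washout neither gene was back at its DMSO level. ALPP was 8.97-fold above DMSO in H1975 (log2 3.15, SE 0.28, edgeR adjusted p = 6.53e-05) and ALPG 6.48-fold (log2 2.65, SE 0.37, edgeR adjusted p = 0.000579), with 26.8% of genes called higher. Here too ALPG passed the filter through the washout libraries. Without the filter its edgeR adjusted p was 0.000608. In HCC2935, ALPP was 6.05-fold above DMSO (log2 2.62, SE 0.35, edgeR adjusted p = 0.000403) and ALPG 3.58-fold (log2 1.86, SE 0.27, edgeR adjusted p = 0.000622), with 21% of genes called higher. In PC9 the ratios were 17.4 for ALPP and 11.5 for ALPG, and in HCC827 5.26 and 32.2, with all washout libraries above all DMSO libraries, as for 24.7% of genes tested in PC9 and 25.1% in HCC827.

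ALPG and ALPP did not keep 1 ratio. In PC9, ALPG counts were between 0.181% and 1.63% of ALPP counts. The range was 4.92% to 71.2% in H1975, 6.01% to 50.7% in HCC2935 and 5.21% to 49.4% in HCC827. Within PC9, the acute libraries lay at 1.51% to 1.63% and all other libraries at or below 0.601%. In H1975, the acute libraries lay at 31.4%, 53.5% and 71.2% and all others at or below 25.2%. In HCC2935, by contrast, the highest share, 50.7%, was in a DMSO library, and DTP libraries lay at 6.19% to 9.54%, and in HCC827 DMSO libraries had the lowest shares with 5.21% to 6.55%. Across the 15 libraries of a line, log2 CPM of the 2 genes had a Pearson r of 0.895 in PC9, 0.937 in HCC827, 0.782 in H1975 and 0.870 in HCC2935, as a description of points that share arms, libraries and possibly reads. With ALPP, ALPG and ALPI summed, the acute rise was called in H1975 (log2 4.40, edgeR adjusted p = 7.55e-05) and HCC2935 (log2 2.85, edgeR adjusted p = 4.04e-05), but ALPP holds most counts of the sum, so that ALPG's own change cannot be read from it. How many ALPG reads came from ALPP was not tested.

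**Figure D4:**
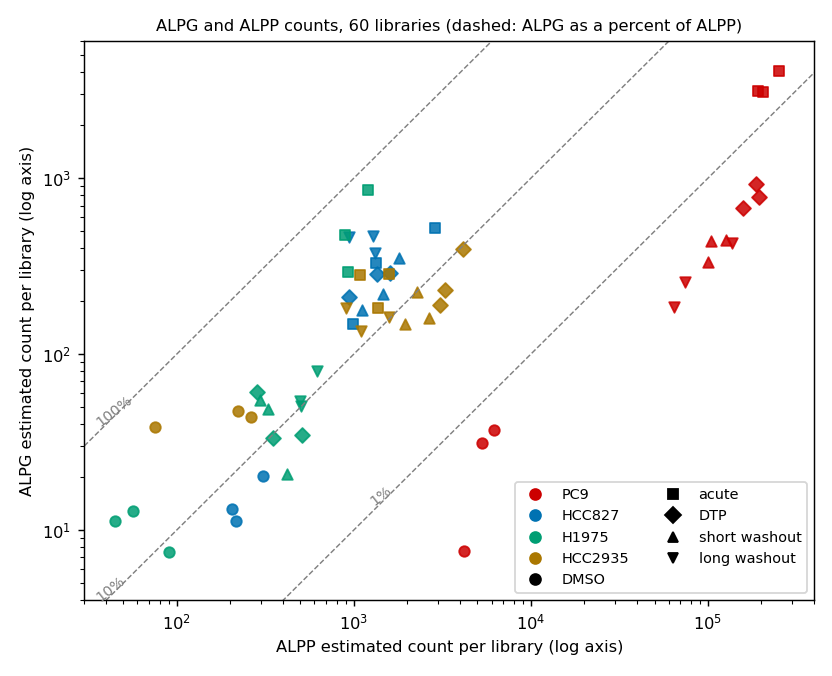
Estimated counts of ALPP (horizontal) and ALPG (vertical) in 60 libraries on log axes, with colours for lines, symbols for arms and dashed lines at 1%, 10% and 100%. PC9 libraries lie near or below the 1% line except under acute drug (1.51% to 1.63%), and those of the other lines between 4.92% and 71.2%.

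ALPI, the intestinal enzyme, was at or near 0 throughout. It had 0 counts in 35 of 60 libraries and at most 8.51 counts, and more than 3 counts in 12. It passed the filter on low counts in none of the 24 comparisons, so no change was tested. The libraries above 3 counts were DTP and washout libraries of H1975, washout libraries of HCC827 and PC9 DTP replicate 1. None was a DMSO or acute library or came from HCC2935. A count of 0 allows up to 3 counts, which was at most 0.169 CPM here.

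ALPL, the tissue-nonspecific enzyme, followed a different course. Its levels under acute drug did not change detectably in the lines where they could be tested, and in DTPs they were called higher in H1975 and lower in HCC2935. HCC827 is given by its counts. In H1975 it had 0.576, 0.621 and 0.964 CPM under DMSO, 0.659, 1.54 and 1.59 CPM under acute drug (log2 0.77, SE 0.43, edgeR adjusted p = 0.181) and 2.98, 6.03 and 6.95 CPM in DTPs. DTPs lay 7.39-fold above DMSO (log2 2.87, SE 0.39, edgeR adjusted p = 0.000609) and 4.21-fold above acute drug (log2 2.04, SE 0.43, edgeR adjusted p = 0.0107), with 11.2% of genes called higher in the latter comparison. Against DMSO, 22.4% of genes tested were called higher in DTPs. The acute libraries of ALPL overlapped with DMSO.

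In HCC2935 the direction was opposite. ALPL had 1.76, 2.01 and 2.28 CPM under DMSO, 1.95, 2.04 and 2.15 CPM under acute drug (log2 0.01, SE 0.30, edgeR adjusted p = 0.987) and 0.622, 0.988 and 1.17 CPM in DTPs. DTPs were at 0.460 times DMSO (log2 -1.13, SE 0.38, edgeR adjusted p = 0.0308) and 0.453 times acute drug (log2 -1.15, SE 0.39, edgeR adjusted p = 0.0369), where 27.2% and 20.4% of genes were called lower. The DTP libraries held only 15.5 to 27.6 counts each. Both calls were also lost with the replicate block (edgeR adjusted p = 0.0640 and 0.0566) and with all 60 libraries in 1 fit (0.0568 and 0.0604). Of 6 fits that leave out a library, 4 lost the call against DMSO (HCC2935 DMSO replicate 1 or 2, DTP replicate 2 or 3) and 5 lost that against acute drug (any acute replicate, DTP replicate 2 or 3).

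HCC827 had almost no ALPL outside the arms with 21 days of drug. Its DMSO libraries held 0, 1.37 and 3.78 counts, its acute libraries 0, 0 and 1.38 counts, and its DTP libraries 15.03, 24.4 and 27.8 counts. The rate in DTPs was 14.1 times that in DMSO (67 against 5 counts, exact 95% interval 5.75 to 44.8, counting error only). Against acute drug it was 65.0 times (67 against 1 count, exact 95% interval 11.3 to 2604). All DTP libraries lay above all DMSO and all acute libraries, as for 24.4% and 23.3% of genes tested. ALPL passed the filter there only through the DTP libraries, with 0 DMSO and 0 acute libraries at its cutoff, so a test over the genes that passed would be conditioned on the rise and none is given. In PC9 it had at most 3.60 counts in any library, with 8 counts in the 3 DTP libraries together, 3 in the acute ones and 0 in the other 9. The 8 counts in DTPs against 0 in DMSO put the exact 95% lower limit of the ratio at 1.75, and the 0 counts of the short and long washouts put its upper limits against DTP at 0.595 and 0.616, all for counting error only. It passed the filter in no PC9 comparison, so the spread between libraries was not tested.

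No difference of ALPL from its DTP level was called in the washouts of the 3 lines where it was tested. Its short washout change was -0.32 in H1975 (SE 0.32), 0.32 in HCC2935 (SE 0.43) and -0.37 in HCC827 (SE 0.44) in log2 units, with edgeR adjusted p of 0.701, 0.732 and 1.00. The joint test over lines gave an edgeR adjusted p of 0.355, in which PC9 enters with 0 against 8 counts. Its long washout changes against DTP were -0.12 (SE 0.33), 0.30 (SE 0.43) and 0.08 (SE 0.58) in the same lines, none called. Against DMSO it was still 6.77-fold higher in H1975 (4.06, 4.08 and 6.48 CPM, log2 2.74, SE 0.32, edgeR adjusted p = 0.000224). In HCC827 it was 15.1 times higher by counts (65 against 5, exact 95% interval 6.15 to 48.1, counting error only), again without a test because it passed the filter only through the washout libraries. In HCC2935 it was at 0.570 times DMSO, below all DMSO libraries as for 27.3% of genes tested, without passing the test (log2 -0.79, SE 0.36, edgeR adjusted p = 0.114).

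**Figure D5:**
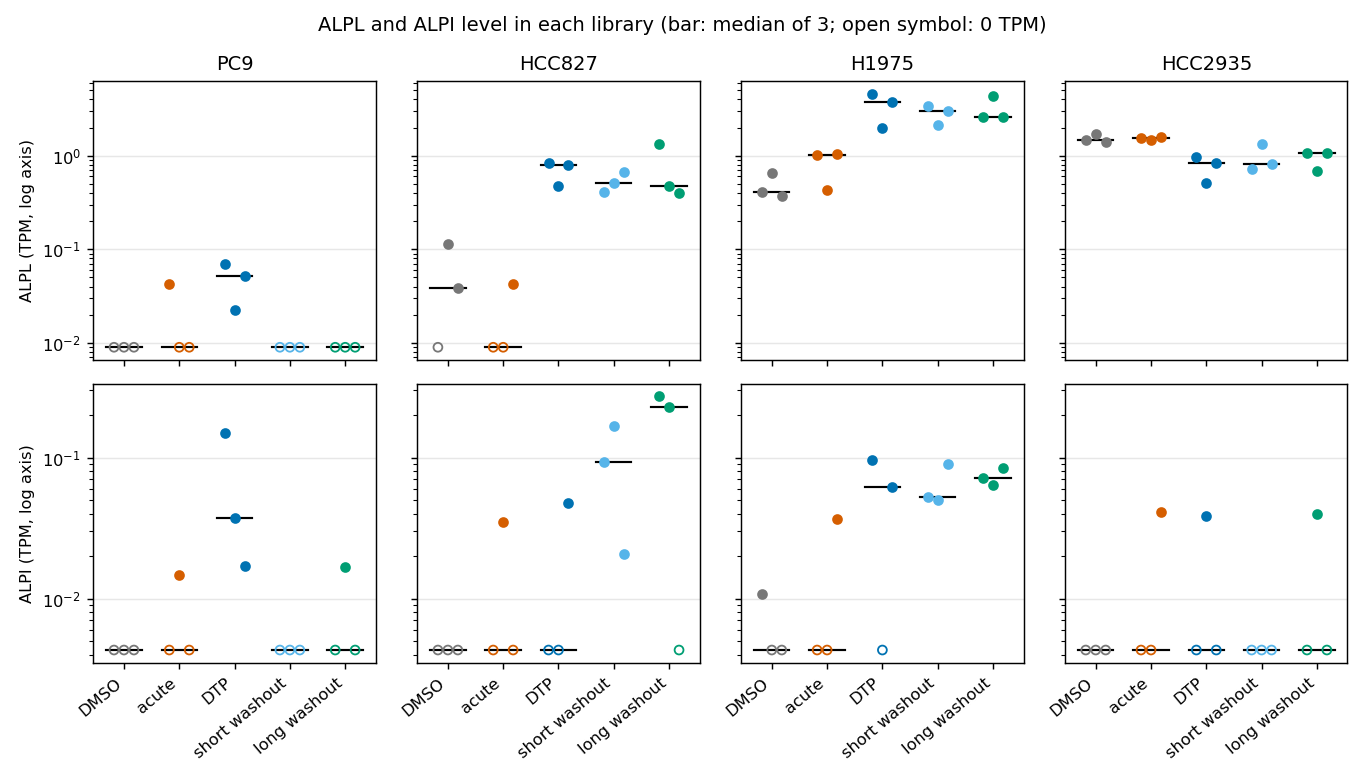
TPM on a log axis of ALPL (upper row) and ALPI (lower row) in each library, by line and arm, with bars at medians and open symbols for 0 TPM, drawn below the lowest value. ALPL is higher in the 3 arms with 21 days of drug than under DMSO in HCC827 and H1975, lower in DTPs than under DMSO in HCC2935 and at most 0.0694 TPM in PC9.

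The neighbouring genes are given for comparison. The 3 genes before ALPP in the reference table were COPS7B, NPPC and DIS3L2, and the 3 after ALPI were ECEL1, PRSS56 and CHRND. NPPC, ECEL1 and PRSS56 had medians of at most 0.398 TPM, and CHRND, a muscle receptor subunit, of at most 0.497 TPM, in the DMSO, acute and DTP groups. DIS3L2, which encodes an exoribonuclease and ends before ALPP, had a median of 22.3 TPM under DMSO and 61.3 TPM under acute drug in PC9 (log2 1.33, SE 0.12), and it was higher in PC9 DTPs (log2 1.07, SE 0.10, edgeR adjusted p = 4.91e-06). In HCC827 the acute change of DIS3L2 was log2 0.34 (SE 0.12), given without a test. In H1975 and HCC2935 its acute changes were -0.20 (SE 0.10, edgeR adjusted p = 0.147) and -0.01 (SE 0.11, edgeR adjusted p = 0.952). Its changes in DTPs of HCC827, H1975 and HCC2935 were 0.23, -0.26 and -0.26, none called (edgeR adjusted p = 0.279, 0.188 and 0.0845). COPS7B, a subunit of the COP9 signalosome, had log2 differences from DMSO between -0.34 and 0.37 under acute drug and in DTPs of the 4 lines. It was called lower in PC9 DTPs (edgeR adjusted p = 0.010) and under acute drug and in DTPs of H1975 (edgeR adjusted p = 0.0399 and 0.0303), and higher under acute drug in HCC2935 (edgeR adjusted p = 0.0248). CHRND was called lower in H1975 DTPs (log2 -2.02, edgeR adjusted p = 0.0268).

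Genes whose group means most resembled ALPG, by Pearson r of log2(CPM + 1) over 20 groups centred within lines and among 13802 genes, were WHRN (r = 0.964), SHISA4 (0.956), EVA1B (0.950), VTCN1 (0.942) and ZNF846 (0.941). The r of ALPP with ALPG was 0.865 and that of ALPL 0.0300. WHRN, which encodes a scaffold protein of stereocilia, had 9.12 CPM under DMSO, 28.7 under acute drug and 19.98 in DTPs of PC9, and 16.3, 27.5 and 18.5 CPM in H1975. Most like ALPL were IL31RA (0.954), LONRF2 (0.934), TLE4 (0.933), PPM1E (0.925) and GDF5 (0.918). IL31RA, a cytokine receptor subunit, had 5.66 CPM under DMSO, 7.26 under acute drug and 12.5 in DTPs of H1975, and 6.09, 5.69 and 9.62 CPM in HCC827. On log2 TPM its r with ALPL was 0.622 and it ranked 529, while LONRF2 ranked 1 (r = 0.916). The groups share libraries and lines, so these r are descriptions.

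Pathway and tissue lists are counted against DMSO, beside the share of all genes tested that was called. Under acute drug this share was 68.5% in PC9 (34.4% higher, 34.1% lower), 42.3% in HCC827 (20.2% and 22.1%), 44.9% in H1975 (21.2% and 23.7%) and 47.1% in HCC2935 (22% and 25.1%). In DTPs it was 71.3% (35.4% and 35.9%), 36.7% (19.4% and 17.2%), 45.7% (22.4% and 23.4%) and 52.5% (25.3% and 27.2%). With at most 16 genes tested per list, nothing particular to a list is read from its counts. Of 13 enzymes and transporters of extracellular phosphate, pyrophosphate and nucleotides, acute drug gave 2 higher and 5 lower of 10 tested in PC9, 1 and 2 of 10 in HCC827, 1 and 3 of 12 in H1975 and 2 and 3 of 11 in HCC2935. Their median log2 changes were -0.25, 0.03, -0.29 and -0.04, against 0.03, 0.01, 0.03 and 0.01 over all genes tested. NT5E, the ectoenzyme that makes adenosine from AMP, fell in H1975 (166 to 25.3 CPM, log2 -2.76, edgeR adjusted p = 0.000347), HCC2935 (204 to 52.0 CPM, log2 -1.99) and HCC827 (199 to 48.2 CPM, log2 -2.06). SLC20A1, a phosphate importer, fell in all 4 lines under acute drug, by log2 -2.55 in PC9, -1.20 in HCC827, -0.92 in H1975 and -0.60 in HCC2935. Its paralog SLC20A2 rose in PC9 (log2 1.17), HCC827 (1.25) and H1975 (0.80). In DTPs, 4 were higher and 4 lower in PC9, 2 and 1 in HCC827, 2 and 5 in H1975 and 3 and 6 in HCC2935, with NT5E lower in each line, and medians of 0.17, 0.07, -0.09 and -0.28.

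Of 16 genes that assemble, attach and remodel the GPI anchor, all tested in every line, acute drug gave 9 higher and 4 lower in PC9, 3 and 3 in HCC827, 1 and 4 in H1975 and 3 and 5 in HCC2935, with median log2 changes of 0.21, -0.11, 0.01 and 0.07. Of all genes tested, 68.5%, 42.3%, 44.9% and 47.1% were called in these comparisons. PGAP3, a remodelling enzyme, was higher in all 4 lines (log2 1.36, 1.64, 0.93 and 0.94 in PC9, HCC827, H1975 and HCC2935), and PIGW, an acyltransferase of anchor assembly, was lower (log2 -1.70, -1.46, -1.40 and -1.62). In DTPs, 7 and 4, 2 and 2, 2 and 4, and 1 and 2 were higher and lower, in the same order of lines.

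Genes of the tissues after which the enzymes are named were few among those tested, in comparisons that called 42.3% to 68.5% of all genes under acute drug and 36.7% to 71.3% in DTPs. Of 13 brush border genes, 4 to 5 passed the filter in an acute comparison, with 1 higher in PC9, 2 in HCC827, 1 in H1975 and 0 in HCC2935, where KRT20 and DPP4 were lower, and medians of 0.66, 0.60, 0.17 and -0.48. In DTPs, 1 was higher and 1 lower in PC9 and in HCC827, 1 and 2 in H1975 and 2 and 1 in HCC2935. Of 11 placental genes in the files, acute drug gave 5 higher and 1 lower of 6 in PC9, 3 and 0 of 4 in HCC827, 2 and 0 of 5 in H1975 and 0 and 1 of 5 in HCC2935, with medians of 0.93, 1.43, 0.23 and -0.18. PSG4, a pregnancy-specific glycoprotein whose near-identical paralogs may share reads, had 25.6 CPM under DMSO and 305 under acute drug in H1975 (log2 3.53, edgeR adjusted p = 5.68e-05). HSD3B1, a steroid dehydrogenase of placenta, was lower in PC9 (13.2 to 0.282 CPM, log2 -5.52, edgeR adjusted p = 3.46e-06). In DTPs the placental counts were 4 and 1, 2 and 0, 2 and 2, and 1 and 0. Of 10 germ cell genes, 2 to 4 passed, with 1 higher in PC9, none called in HCC827 and H1975 and 2 lower in HCC2935 under acute drug, and medians of 1.30, 0.75, 0.26 and -0.73. In DTPs 1 was higher in PC9, 1 higher and 1 lower in HCC827 and HCC2935 and 0 called in H1975.

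Bone genes were set beside ALPL, in the same comparisons (42.3% to 68.5% of all genes called under acute drug and 36.7% to 71.3% in DTPs). Of 8, acute drug gave 3 higher and 1 lower of 5 in PC9, 3 and 0 of 6 in HCC827, 3 and 0 of 5 in H1975 and 2 and 0 of 4 in HCC2935, with medians of 0.95, 0.88, 0.63 and 0.24. SPP1, the bone matrix protein osteopontin, had 145 CPM under DMSO and 832 under acute drug in PC9 (log2 2.51, edgeR adjusted p = 2.31e-06). COL1A1, also a fibroblast marker, had 71.0 and 282 CPM in H1975 (log2 1.95, edgeR adjusted p = 0.00943). In DTPs, 3 and 1, 2 and 0, 1 and 0, and 1 and 2 were higher and lower. Of 6 genes of EGFR signalling output and proliferation, which check the drug, all 6 were lower under acute drug in each line (medians -4.26, -3.37, -3.29 and -3.93), and in DTPs 6, 4, 6 and 6 were lower.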

How the data were processed

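RNA of 60 libraries (4 lines, 5 arms, 3 libraries a group) was sequenced as paired reads of 150 bases after poly(A) selection. The authors deposited estimated counts per gene and, separately, log2 values of TPM with a pseudocount of 0.01. The submitters' processing notes name HISAT2 2.1.0, Salmon 0.8.2 and hg38, with no role given here. The annotation and the use of strand in counting are not given in the sources used here. Depth was 17.7 M to 49.1 M counts, and 0 columns belonged to other samples. The labels call the 3 libraries of a group biological triplicates. The sources used here do not say how separate the cultures were, so p-values measure the spread between these libraries.

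Estimated counts were rounded to whole numbers, filtered with filterByExpr, scaled by TMM and tested per comparison with edgeR 4.0.16 in R 4.3.3 (quasi-likelihood test, two-sided, Benjamini-Hochberg adjustment over all genes tested, called at 0.05). Standard errors are the log2 fold change divided by the square root of F. CPM used TMM over all 60 libraries, and TPM was 2 to the deposited log2 value minus 0.01. limma 3.58.1 and DESeq2 1.42.0 served as alternatives. For genes near 0 counts, rate ratios have exact 95% intervals, which cover counting error only. Some of the fits were also run on simulated counts without replicate pairing. The outcome is not reported here and no result rests on it. Sequences came from RefSeq and GENCODE 29 (build GRCh38) and were aligned with Biopython 1.88 in Python 3.11.15.

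The members, lists and tests were chosen with earlier results of these data known. Named genes were the 4 members in every arm, the 5 genes most like ALPG and the 5 most like ALPL, up to 3 neighbours on each side of the cluster, and from each list up to 2 called genes at each end of the log2 fold changes. One list of pathway genes is not reported here. Replicate numbers were taken from the labels. Deviations of same-numbered libraries from their group means correlated between -0.65 and 0.69, and exceeded 0.1 for all 3 pairs in 3 of 24 comparisons, namely short washout against DTP in HCC827 and H1975 and acute drug against DMSO in HCC2935. Replicate libraries differed by at least 8.97 times the counting error, so none was counted as a duplicate. Alternatives covered the filter, scaling, tool, unit, libraries in the fit, summed paralogs, the replicate block, the threshold and single libraries left out.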

Additional observations from a re-analysis of the deposited data

Results flagged for a closer look

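The acute change of ALPG differed between lines by the interaction test, with 3.27 log2 units more in H1975 than in HCC2935. On log2(TPM + 1) this difference was 0.78 and not called (limma adjusted p = 0.210). Acute levels of ALPG overlapped between the 2 lines, while DMSO levels were lower in H1975. ALPP moved in opposite directions from acute drug to DTPs, with every library of one arm beyond every library of the other, by log2 -0.33 in PC9 and -1.48 in H1975 against 1.23 in HCC2935. In PC9 this holds in CPM, while in TPM the libraries overlapped (log2 -0.07), and with library size only the change was -0.19. ALPL did so from DMSO to DTPs, by log2 3.68 in HCC827 and 2.87 in H1975 against -1.13 in HCC2935, and from acute drug to DTPs, by log2 5.59 in HCC827 and 2.04 in H1975 against -1.15 in HCC2935. ALPL in HCC827 passed the filter only through its DTP libraries. The differences between lines for ALPP and ALPL were not tested.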

How the results depend on the processing

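Outside the fits that leave out a library, 885 values kept their direction and side of the threshold (or moved by less than 1 SD), 22 moved, 19 reversed, 15 lost a call and 7 gained one. RLE size factors and a minimum of 10 counts in every library changed none that they could give. On limma with log2(TPM + 1), ALPG differences against DMSO were 5.04 (acute), 3.22 (DTP) and 1.92 (long washout) in PC9 and 2.71, 2.51 and 3.29 in HCC827, and DTP against acute gave -1.82 in PC9 and 0.10 in HCC2935. The acute difference of ALPG between H1975 and HCC2935 was 0.78. On the same scale ALPP gave 5.24 for DTP against DMSO and -0.0652 for DTP against acute in PC9 and 0.0168 for long washout against DTP in HCC827, where ALPL gave -0.00616, and the short washout difference between HCC827 and H1975 was -0.0583 for ALPG and 0.0288 for ALPL. On limma with log2 TPM the values were -1.91 for ALPG from acute to DTP in PC9, 0.11 in HCC2935, 5.26 and -0.0652 for ALPP from DMSO and from acute to DTP in PC9, 0.0176 for ALPP and -0.11 for ALPL from DTP to long washout in HCC827, and -0.0110 for the short washout difference of ALPG between HCC827 and H1975. With ALPP, ALPG and ALPI summed, acute drug against DMSO gave 5.34 in PC9 and 2.98 in HCC827, DTP against DMSO 2.62 and long washout against DMSO 2.79 in HCC827, DTP against acute -0.35 in PC9 and 1.09 in HCC2935, short and long washout against DTP 0.12 and 0.18 in HCC827, long washout against DTP -0.85 in PC9 and -1.49 in HCC2935, and the acute difference between H1975 and HCC2935 1.64. The sum was called for that difference (edgeR adjusted p = 0.0339), where ALPP was not, and for the HCC2935 long washout (0.00440), where ALPG was not. It was not called for the PC9 long washout (0.0629), where ALPG was. With 15 libraries in 1 fit, the short washout of PC9 gave -0.93 for ALPG and -0.66 for ALPP, both no longer called, and ALPP gave -0.87 after its long washout, now called. With all 60 libraries these were -0.93, -0.66 and -0.86, and ALPL in HCC2935 DTPs gave -1.12 against DMSO and -1.14 against acute, no longer called. DESeq2 called ALPP after the PC9 long washout (-0.87) and the HCC2935 short washout (-0.49). Without a filter the latter was called (-0.49), ALPL under acute drug in HCC2935 was -0.00605 and the ALPG short washout difference between HCC827 and H1975 -0.000661. With library size only, ALPP from acute to DTP was -0.19 in PC9, ALPP from DTP to long washout 0.0158 in HCC827 and that ALPG difference -0.0342. At a threshold of 0.01 the calls of ALPG after the PC9 long washout (-1.33) and of ALPL from DMSO to long washout in HCC827 (3.74, a fit conditioned on its filter and given above without a test), from acute to DTP in H1975 (2.04) and to DTP in HCC2935 (-1.13 and -1.15) were lost. With the replicate block, ALPL in HCC2935 DTPs was no longer called (-1.16 against DMSO and -1.18 against acute), long washout against DTP in HCC827 was 0.00298 for ALPP and -0.0848 for ALPL, and the ALPG short washout difference between HCC827 and H1975 was -0.0196. The block changed no other call of the members. The 5 genes most like ALPG shared 2 with the list by Spearman correlation and 3 by log2 TPM, and those most like ALPL 1 and 2.

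Leaving out 1 library at a time, 809 values were kept, 15 lost a call, 2 gained one and 32 reversed. ALPG ranged from -1.72 to -1.07 for long washout against DTP in PC9, from -0.66 to 0.0892 for DTP against acute in HCC827, from -0.31 to 0.12 for the same in HCC2935, from -0.26 to 0.0214 and from -0.33 to 0.32 for the short washouts of HCC827 and H1975, and from -0.41 to 0.24 for their difference. ALPP ranged from -1.26 to -0.63 for long washout against DTP in PC9, from -0.65 to 0.0833 for DTP against acute and -0.19 to 0.14 for long washout against DTP in HCC827, from -0.0230 to 0.29 and -0.32 to 0.14 for the short washouts of HCC827 and H1975, and from 0.78 to 1.54 for the acute difference, which was called without HCC2935 DMSO replicate 3 (edgeR adjusted p = 0.0219). ALPL ranged from -0.70 to 0.40 and 2.99 to 5.25 for the HCC827 long washout against DTP and DMSO, from -0.41 to 0.12 for the H1975 long washout against DTP, from -0.0644 to 0.0997, -1.34 to -0.91 and -1.35 to -0.93 in HCC2935 for acute against DMSO, DTP against DMSO and DTP against acute, and from -0.31 to 0.26 for the short washout difference between HCC827 and H1975. Apart from what is named here, the cause of these shifts was not tested. ALPI in all lines and ALPL in PC9 had counts too near 0 to be tested.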
